A study of Mus musculus with 8 samples.

Results

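The IL-2 receptor, STAT5 and SOCS genes are 10 genes of the 49212 counted in these libraries, taken by symbol from the raw counts of all 8 libraries. They encode the 3 receptor chains (Il2ra, Il2rb and Il2rg), the kinase Jak3, the transcription factors Stat5a and Stat5b, and 4 feedback inhibitors (Cish, Socs1, Socs2 and Socs3). All 10 passed the filter on low counts in every comparison. IL-2 is the cytokine on which Foxp3+ regulatory T (Treg) cells depend, and they make almost none of it themselves. CD25, the product of Il2ra, raises the affinity of the receptor for IL-2, while the beta and common gamma chains carry the signal through Jak1 and Jak3 to STAT5. Active STAT5 switches on Il2ra itself and the SOCS family, whose proteins dampen further cytokine signaling.

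RNA was sequenced from effector Treg (eTreg) cells, sorted as CD45+CD44+YFP+CD4+CD3+ cells from the spleen or from B16-OVA melanomas (tumor-infiltrating lymphocytes, TIL) of C57BL/6 mice aged between 5 and 10 weeks, both sexes. WT mice were FoxP3YFP-Cre. KO mice were Prdm1fl/flFoxP3YFP-Cre, in which Cre driven from Foxp3 deletes Prdm1, the gene of the repressor Blimp1, in cells that express Foxp3. All mice of the 4 groups bore tumors of at most 1.5 cm3 and were immunized with NP-OVA in CFA on day 0 and in IFA on day 7. Each group has 2 libraries, called KO TIL 1, KO TIL 2 and so on by their replicate number. The sources do not say whether these came from separate or pooled mice, so the p-values measure the spread between libraries, which may be technical. Spleen cells were enriched on CD4 beads before the sort and tumor cells were not, so tissue and preparation cannot be told apart.

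The libraries held 27834676 to 43903859 counts, and a floor of 3 counts was between 0.0683 and 0.108 CPM (a count as a share of the TMM-scaled library total). Prdm1 was at 90.7 and 75.1 CPM in KO TIL, with WT TIL at 108 and 192 CPM. KO spleen held 40.7 and 53.4 CPM of it, and WT spleen 54.1 and 21.02 CPM. These counts cover the whole gene, and which exons the deletion removes is not given in the sources used here, so they do not check the labels. Both KO TIL libraries went against the gate by which they were sorted. Cd4 was at 148 and 66.2 CPM in KO TIL against 807 and 1086 CPM in WT TIL and between 384 and 1009 CPM in spleen. Foxp3 was at 10.2 and 2.99 CPM in KO TIL against 25.5 and 60.5 CPM in WT TIL and between 43.1 and 69.7 CPM in spleen. The CD8 chains Cd8a and Cd8b1 summed to 406 and 2222 CPM in KO TIL, to 148 and 48.3 CPM in WT TIL and to at most 30.7 CPM in spleen. In KO TIL 1, the 6 pan T cell markers (Cd3e, Cd3d, Cd3g, Cd247, Cd2 and Lck) made up 0.125% of counts, against between 0.470% and 0.735% in the other 7 libraries. The same library held 15059 CPM of the 7 macrophage and monocyte markers, against between 238 and 2951 CPM elsewhere, and 3201 CPM of the 6 melanoma markers, against 830, 2078 and 1140.1 CPM in the other TIL libraries. In KO TIL 2 the macrophage sum was 1666 CPM, within the range of the WT TIL libraries. One spleen library also stood apart: WT spleen 2 had the least Cd4 of the spleen libraries and the most macrophage markers, at 1526 CPM against at most 629 CPM. In bulk libraries, fewer cells of a type and less RNA per cell cannot be told apart.

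**Figure D1:**
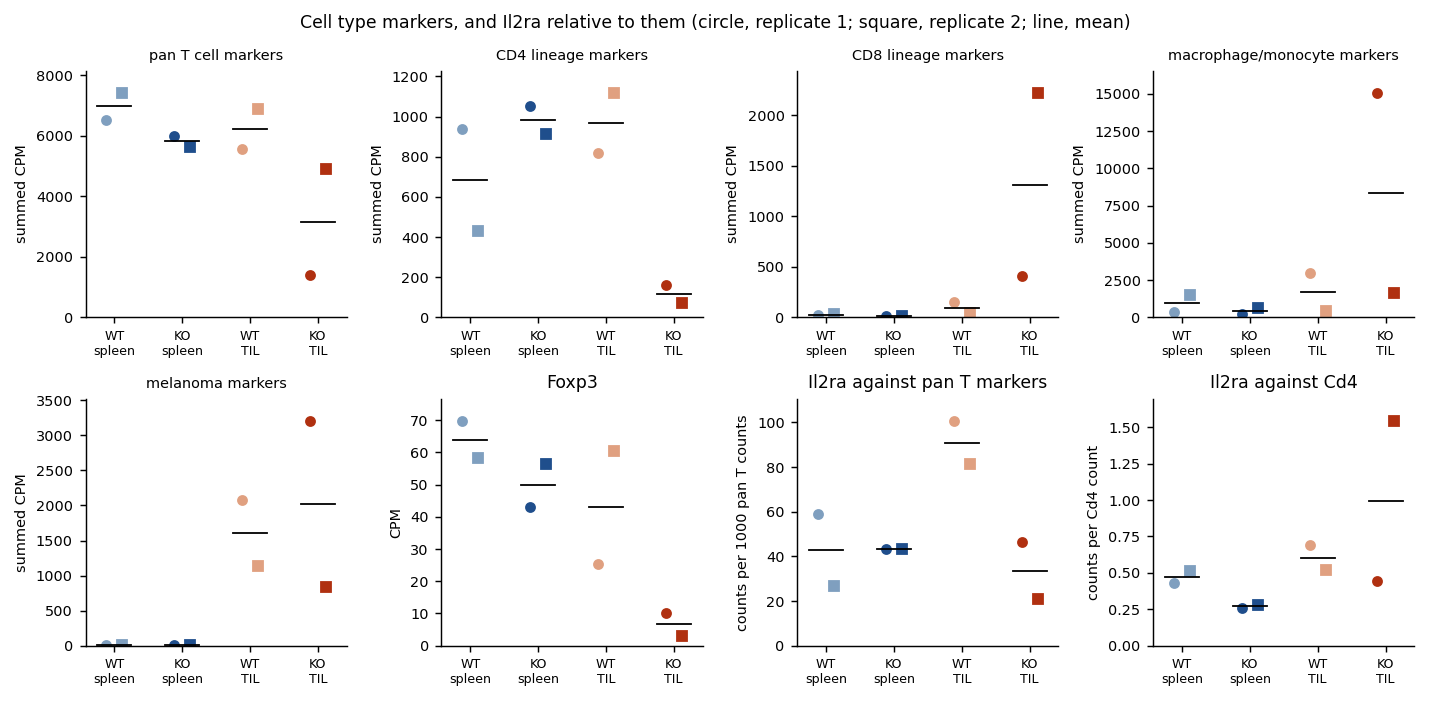
Summed CPM of marker lists and the CPM of Foxp3 in each library, with Il2ra counts set against the counts of the 6 pan T cell markers and of Cd4. Points are the 2 libraries of each group (circle, replicate 1; square, replicate 2) and lines are their means; Cd4 lineage and Foxp3 levels were lowest in both KO TIL libraries, and KO TIL 1 had the most macrophage and melanoma markers.

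In tumors, Il2ra and Socs2 had the lowest KO levels relative to WT of the 10 genes: the mean of KO TIL was 6.70 times lower than that of WT TIL for Il2ra and 6.45 times lower for Socs2. Cish, Stat5a, Il2rg, Jak3, Il2rb and Stat5b were lower by smaller factors, between 2.32 and 1.59 times, again with both KO libraries below both WT libraries. Socs1 was slightly higher in both KO libraries and Socs3 was high in KO TIL 1. For KO against WT in TIL, edgeR called none of the 10, and DESeq2 called Il2ra and Socs2. The sizes and signs of these TIL differences depend on the scaling of the libraries, given below. In the spleen none of the 10 passed the test by edgeR or DESeq2, and all log2 fold changes were within 0.61 of 0.

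Il2ra, on chromosome 2 (11642807-11693193, plus strand, GRCm38), had the steepest pattern of the receptor genes. Its level was 559.7 and 561 CPM in WT TIL, 384 and 197 CPM in WT spleen, 261 and 245 CPM in KO spleen and 65.2 and 102 CPM in KO TIL. The WT TIL libraries were above all others and the KO TIL libraries below all others, while the WT and KO spleens overlapped. KO against WT in TIL was a log2 fold change of -2.75 (SE 0.36, edgeR's quasi-likelihood test, adjusted p = 0.1775, unadjusted p = 0.000482), which missed the threshold (adjusted p below 0.05 and a log2 fold change beyond 1 in either direction). DESeq2 on the same 4 libraries called it, at -2.74 with an adjusted p of 1.64e-06. Without KO TIL 1 the value was -2.46 and without KO TIL 2 it was -3.12. In the spleen the genotype difference was -0.20 (SE 0.41, adjusted p = 0.911 by edgeR) and turned to 0.42 without WT spleen 1. TIL against spleen was 0.95 (SE 0.48, adjusted p = 0.304) in WT and -1.59 (SE 0.28, adjusted p = 0.0591) in KO, both by edgeR. Leaving out either KO TIL library took the second of these past the threshold, at -1.32 without KO TIL 1 and -1.91 without KO TIL 2, where 3549 of 17976 and 4958 of 18484 genes passed as well, against 228 of 16933 with all 4 libraries. The Il2ra difference between the tissues in the genotype effect, tested as an interaction over all 8 libraries, was -2.55 (SE 0.57, edgeR adjusted p = 0.269), and DESeq2 gave an adjusted p of 0.0106 for it.

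Il2rb, the beta chain that the IL-15 receptor also uses, lies on chromosome 15 (78480553-78495066, minus strand). It stood at 2199 and 2465 CPM in WT TIL and at 731 and 2044 CPM in KO TIL. The KO TIL libraries lay on either side of the spleen, where KO libraries were at 1107 and 1115 CPM and WT libraries at 1231 and 763 CPM. The log2 fold change of Il2rb in KO against WT TIL was -0.75 (SE 0.55, edgeR adjusted p = 0.775), and it moved to -0.19 without KO TIL 1 and -1.69 without KO TIL 2. Its tissue difference was 1.23 in WT (SE 0.49, edgeR adjusted p = 0.188) and 0.32 in KO (SE 0.51, edgeR adjusted p = 0.716). The second turned to -0.56 without KO TIL 2, the library with the most CD8 markers; the part of those cells in the Il2rb level was not tested.

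Il2rg, the common gamma chain shared by the receptors of IL-2, IL-4, IL-7, IL-9, IL-15 and IL-21, lies on chromosome X (101264378-101268255, minus strand). Its level was 613 and 872 CPM in KO TIL, below the other 6 libraries, which ran from 1163 to 1642 CPM. KO against WT in TIL gave -0.98 (SE 0.36, edgeR adjusted p = 0.476, unadjusted p = 0.0406), and KO TIL against KO spleen gave -0.74 (SE 0.27, edgeR adjusted p = 0.152). The spleen genotype difference was close to 0, at -0.03 (SE 0.35, edgeR adjusted p = 0.983). In the annotation, 728 exonic bases (30.5% of the gene's exonic length) are shared with Gm20489 on the same strand, which had between 1 and 8 counts, so part of the Il2rg reads may be lost to ambiguity in every library.

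**Figure D2:**
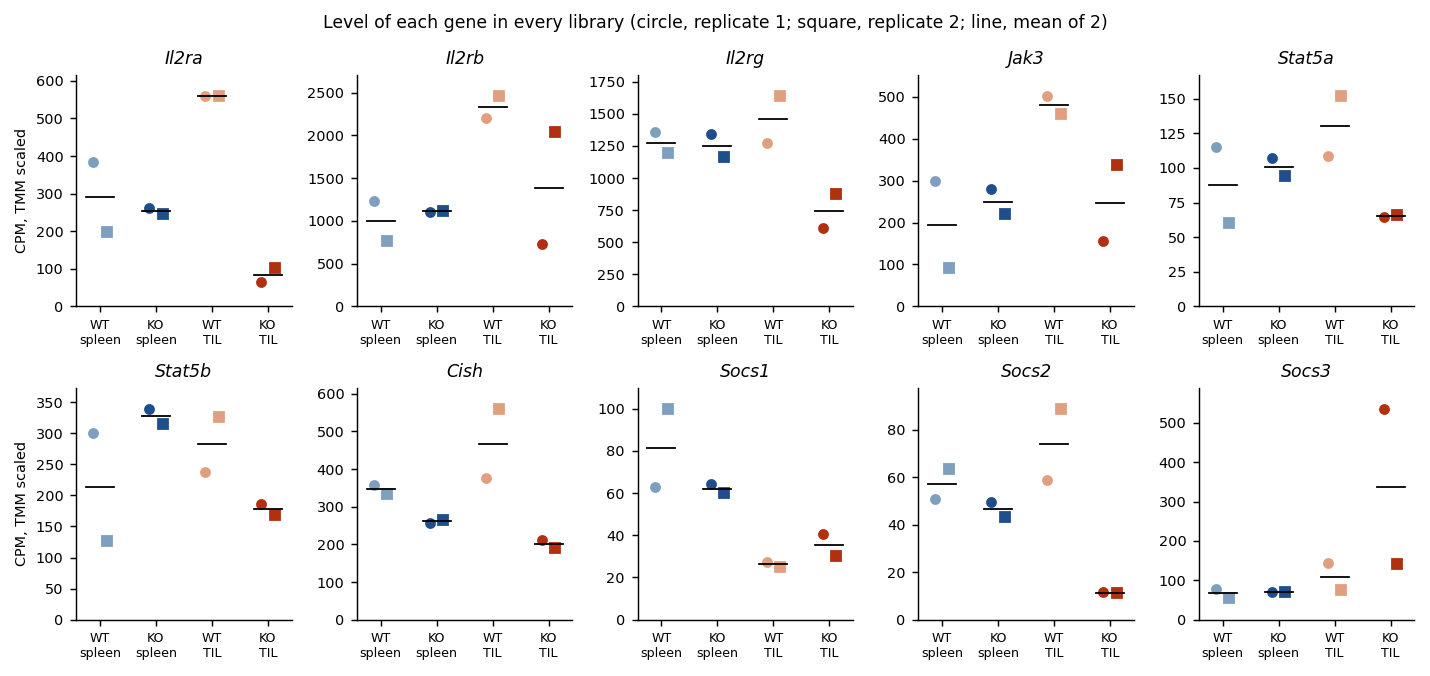
CPM of the 10 genes in every library, each panel on its own axis from 0, with circles for replicate 1, squares for replicate 2 and lines for means of 2. Il2ra and Socs2 were lowest in both KO TIL libraries, Socs1 CPM was lower in all 4 TIL libraries than in all 4 spleen libraries, and Socs3 was highest in KO TIL 1.

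Jak3, the kinase bound to the common gamma chain, lies on chromosome 8 (71676296-71690575, plus strand). It was at 503 and 459.9 CPM in WT TIL, above the other 6 libraries. KO TIL held 156 and 338 CPM, KO spleen 280.5 and 219.6 CPM, and WT spleen 299 and 91.9 CPM, so these 3 groups overlapped. The genotype difference in TIL was -0.96 (SE 0.44, edgeR adjusted p = 0.578) and ranged from -0.51 without KO TIL 1 to -1.65 without KO TIL 2. For TIL against spleen in WT the value was 1.31 (SE 0.57, edgeR adjusted p = 0.226), and 2.41, past the threshold, without WT spleen 1, where 1401 of 17792 genes passed. Without that library WT spleen 2 alone, at 91.9 CPM, stands for the group, and the KO to WT difference in spleen then became 1.50, also past the threshold, as did 3972 of 18008 genes. In the annotation, 404 exonic bases (7.55%) of Jak3 are shared with Insl3, which had between 1 and 27 counts.

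Stat5a and Stat5b are neighboring genes on chromosome 11 (100859351-100885169, plus strand, and 100780731-100850724, minus strand) whose products are closely related. Stat5a was at 64.8 and 66.2 CPM in KO TIL, 109 and 152 CPM in WT TIL, 107 and 93.8 CPM in KO spleen and 115 and 60.1 CPM in WT spleen. Stat5b was at 186 and 169 CPM in KO TIL, 238 and 326 CPM in WT TIL, 339 and 315 CPM in KO spleen and 301 and 127 CPM in WT spleen. For both genes the KO TIL libraries lay below WT TIL and KO spleen, and WT spleen 2 was lower still. KO against WT in TIL was -0.998 for Stat5a (SE 0.30, edgeR adjusted p = 0.380, unadjusted p = 0.0198) and -0.67 for Stat5b (SE 0.31, edgeR adjusted p = 0.577). In the spleen, Stat5b was above WT in both KO libraries, at 0.61 (SE 0.46, edgeR adjusted p = 0.878), a value of 1.43 without WT spleen 1 and of 0.12 without WT spleen 2. KO TIL against KO spleen gave -0.86 for Stat5b (SE 0.21, edgeR adjusted p = 0.0783) and -0.60 for Stat5a (SE 0.19, edgeR adjusted p = 0.122). Of the 150-base words of the longest Stat5a transcript (GENCODE M21), 0.184% occur in Stat5b, and 3.46% the other way, so few reads could be split between the pair. Stat5a also shares 72 exonic bases with Stat3 on the opposite strand.

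Within each library the ratio of 2 genes does not depend on how libraries are scaled. Il2ra to Il2rb, in counts per kilobase of exon, was 0.0435 in KO TIL 1 and 0.0243 in KO TIL 2. It was 0.124 and 0.111 in WT TIL, 0.115 and 0.107 in KO spleen and 0.152 and 0.126 in WT spleen. The KO TIL ratios were thus below those of the other 6 libraries, which spanned a narrow range. A ratio still depends on which cells a library holds, and KO TIL 2, with the lowest ratio, had the most CD8 markers. The part of cell content in the ratio was not tested. On the log2 scale, the planned test of 4 TIL against 4 spleen libraries gave -4.02 ± 1.12 (SD, n = 4) against -3.01 ± 0.22 (SD, n = 4), a difference of -1.005 that did not pass (two-sided exact permutation p = 0.171, 0.343 after Benjamini-Hochberg adjustment over 2 ratios, smallest possible p 0.0286). Within genotypes the tissue difference was -0.24 in WT and -1.77 in KO, and KO against WT was -1.85 in TIL and -0.32 in spleen. Comparisons of 2 against 2 libraries cannot go below an exact p of 0.333 and were not tested.

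Stat5a to Stat5b per kilobase varied less. It was 0.270 and 0.304 in KO TIL, 0.355 and 0.362 in WT TIL, 0.245 and 0.231 in KO spleen and 0.298 and 0.369 in WT spleen. The KO libraries were below the WT libraries within each tissue, with log2 differences of -0.32 in TIL and -0.48 in spleen. Between tissues the log2 ratio was -1.64 ± 0.20 (SD, n = 4) in TIL and -1.83 ± 0.31 (SD, n = 4) in spleen, a difference of 0.19 (two-sided exact permutation p = 0.343, and 0.343 after adjustment). Stat5b thus had more counts per kilobase than Stat5a in all 8 libraries.

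**Figure D3:**
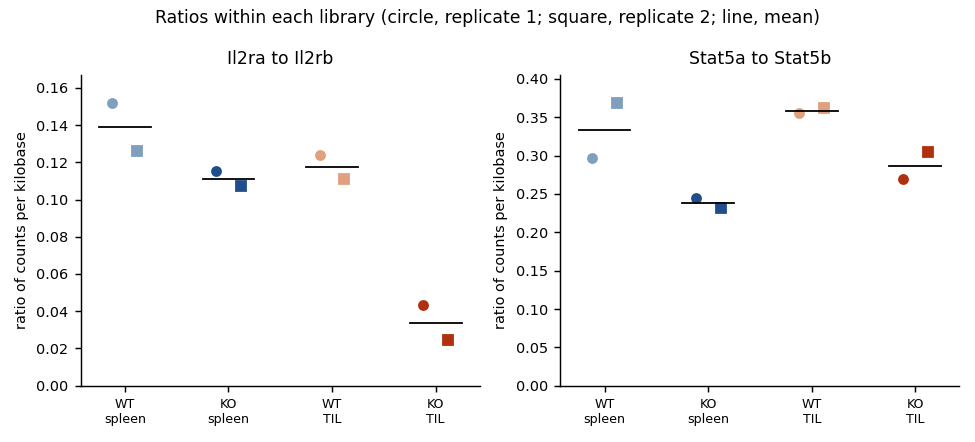
Ratio of counts per kilobase of Il2ra to Il2rb and of Stat5a to Stat5b in every library, on axes from 0 (circle, replicate 1; square, replicate 2; line, mean). The Il2ra to Il2rb ratio was 0.0435 and 0.0243 in KO TIL and at least 0.107 elsewhere.

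The SOCS family genes did not move together. Cish encodes CIS, which binds activated cytokine receptors. It was at 375 and 559.8 CPM in WT TIL, 359 and 333 CPM in WT spleen, 256 and 265 CPM in KO spleen and 212 and 192 CPM in KO TIL, 4 groups that did not overlap. KO against WT gave -1.22 in TIL (SE 0.34, edgeR adjusted p = 0.327, unadjusted p = 0.0137) and -0.41 in spleen (SE 0.33, edgeR adjusted p = 0.878). TIL against spleen was 0.43 in WT (SE 0.45, edgeR adjusted p = 0.639) and -0.35 in KO (SE 0.21, edgeR adjusted p = 0.317). DESeq2 called Cish in KO against WT TIL when fitted over all 8 libraries, at -1.20, and not when fitted on 4, where its adjusted p was 0.126. The Cish annotation overlaps Gm17040 (261 bases) and Gm17041 (479 bases) on the opposite strand; they had at most 12 counts.

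The promoter windows of Cish and Socs3 are shown because they were the only windows among the 10 found for 8 of these genes in RefSeq (GRCm38.p6; no entry for Il2rb or Socs2) that hold the palindromic STAT letters TTCNNNGAA. Each window runs from 250 bases before to 50 bases after the start site, and capitals mark the matches.
Cish, chr9:107296409-107296708, plus strand: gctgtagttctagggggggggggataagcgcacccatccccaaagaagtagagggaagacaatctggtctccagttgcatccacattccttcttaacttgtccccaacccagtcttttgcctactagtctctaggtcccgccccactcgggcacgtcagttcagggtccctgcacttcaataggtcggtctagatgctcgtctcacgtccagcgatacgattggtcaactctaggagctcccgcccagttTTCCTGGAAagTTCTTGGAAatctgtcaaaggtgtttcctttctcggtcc
Socs3, chr11:117969317-117969616, minus strand: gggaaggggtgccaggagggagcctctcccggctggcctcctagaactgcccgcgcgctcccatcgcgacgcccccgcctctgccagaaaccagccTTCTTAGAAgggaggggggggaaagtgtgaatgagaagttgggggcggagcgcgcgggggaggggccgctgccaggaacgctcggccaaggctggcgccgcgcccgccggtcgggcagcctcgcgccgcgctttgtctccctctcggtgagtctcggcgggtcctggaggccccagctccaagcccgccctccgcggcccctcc
Cish has 2 matches, beginning at bases 251 and 262 of the window, and Socs3 has 1, beginning at base 97. Of 32851 promoter windows, 8.30% hold at least 1 match and 0.457% hold 2 or more. The Blimp1 core letters AGNGAAAG, searched on both strands and sharing no site with the STAT letters, were in none of the members' windows and in 8.63% of all windows. The Il2ra window (chr2:11642542-11642841) held neither. A match is a description of the letters and not of binding.

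Socs2, which restrains growth hormone and other STAT5 signals, lies on chromosome 10 (95385362-95417180, minus strand). Its level was 11.7 and 11.1 CPM in KO TIL, from 370 and 298 counts, and 58.9 and 88.8 CPM in WT TIL. KO spleen was at 49.8 and 43.4 CPM, WT spleen at 50.8 and 63.4 CPM. Both KO TIL libraries were below all others. KO against WT in TIL was -2.69 (SE 0.35, edgeR adjusted p = 0.1775, unadjusted p = 0.000456), a call in DESeq2 with an adjusted p of 4.44e-06. The value was -2.73 without KO TIL 1 and -2.67 without KO TIL 2. KO TIL against KO spleen was -2.01 (SE 0.24, edgeR adjusted p = 0.0485), the single member that passed the edgeR threshold in any comparison; without KO spleen 1 the adjusted p was 0.227 and without KO spleen 2 it was 0.174, and 0 genes passed in either case. Scaled to pan T cell markers, Socs2 in KO TIL against KO spleen was -0.59 and did not pass (SE 1.16, edgeR adjusted p = 0.719). The median of all genes was then 1.37. The WT tissue difference of Socs2 was 0.37 (SE 0.44, edgeR adjusted p = 0.687). The Socs2 interaction was -2.40 (SE 0.47, edgeR adjusted p = 0.234), and DESeq2 gave it an adjusted p of 0.00704.

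Socs1, an inhibitor of Jak kinases, lies on chromosome 16 (10783808-10785536, minus strand) and had a lower CPM in TIL than in spleen libraries. WT TIL was at 27.5 and 24.9 CPM and KO TIL at 40.7 and 30.1 CPM, below WT spleen at 63.1 and 99.8 CPM and KO spleen at 64.3 and 59.9 CPM. The 4 TIL libraries did not overlap with the 4 spleen libraries. TIL against spleen was -1.64 in WT (SE 0.45, edgeR adjusted p = 0.062), a DESeq2 call with an adjusted p of 0.0215, and -0.79 in KO (SE 0.25, edgeR adjusted p = 0.119), which passed in neither tool. Scaled to pan T cell markers the KO value turned to 0.72, beside 1.37 for the median of all genes. Per 1000 pan T cell marker counts, Socs1 was 29.0 in KO TIL 1 and 6.16 in KO TIL 2, with 4.93 and 3.62 in WT TIL and between 9.66 and 13.5 in the spleen libraries. The WT value was -1.91, past the edgeR threshold, without WT spleen 1 and -1.23 without WT spleen 2. KO against WT gave 0.43 in TIL (SE 0.32, edgeR adjusted p = 0.779).

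Socs3, which acts chiefly on cytokine receptors of the gp130 family, lies on chromosome 11 (117966079-117970047, minus strand). It was at 536 CPM in KO TIL 1 and 141 CPM in KO TIL 2. WT TIL libraries held 143 and 76.5 CPM, KO spleens 71.3 and 71.6 CPM, and WT spleens 78.4 and 54.8 CPM. The high value is thus that of 1 library, the one with the most macrophage markers; their part in it was not tested. KO against WT in TIL was 1.62 (SE 0.70, edgeR adjusted p = 0.553) and 0.36 without KO TIL 1. KO TIL against KO spleen was 2.28 (SE 0.69, edgeR adjusted p = 0.108), called by DESeq2 with an adjusted p of 0.00521, and 0.98 without KO TIL 1.

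Per kilobase of exon, so that genes can be compared, the receptor chains Il2rb and Il2rg had the highest mean levels in WT TIL, at 837 ± 67.4 and 610.4 ± 109.7 CPM per kilobase (SD, n = 2). Il2ra followed at 98.1 ± 0.14, Jak3 at 89.96 ± 5.7, Cish at 72.8 ± 20.3, Stat5b at 50.9 ± 11.3 and Socs3 at 38.0 ± 16.3 CPM per kilobase. Socs1 (21.5 ± 1.48), Stat5a (18.3 ± 4.31) and Socs2 (7.75 ± 2.22) were the lowest on this scale, and Socs1 and Stat5a did not differ beyond their spread. In KO TIL, Il2ra stood at 14.6 ± 4.55 CPM per kilobase, near Stat5a at 9.18 ± 0.15, while Il2rb was at 498 ± 333.

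Read against all genes, KO against WT in TIL called 0 of the 10 genes and 0% of the 15935 genes tested with edgeR. At an unadjusted p under 0.05 it had 5 members (Il2ra, Socs2, Cish, Stat5a and Il2rg, all lower), where 9.87% of all genes had such a p. DESeq2 on these libraries called 2 members, Il2ra and Socs2, against 4.68% of the genes it tested. Both KO libraries were below both WT libraries for 8 members, against 19.4% of all genes, and above for 1, against 18.0%. The median log2 fold change of the 10 was -0.97, beside 0.04 over all genes tested.

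KO against WT in spleen called 0 members and 0% of 16583 genes with edgeR, with 0 members and 2.95% of genes at an unadjusted p under 0.05. DESeq2 called 0 members and 0.416% of genes. Cish and Socs2 were below without overlap (15.7% of genes) and Stat5b above (16.4% of genes). The members' median was 0.03, beside -0.02 over all genes.

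TIL against spleen in WT called 0 members by edgeR, against 5.97% of genes, and 3 members (Il2rb, Jak3 and Socs1) had an unadjusted p under 0.05, against 20.5% of genes. DESeq2 called Socs1 alone, against 9.91% of genes. Il2ra, Il2rb, Jak3 and Cish were above the spleen without overlap (25.1% of genes) and Socs1 below (27.0% of genes), with a median of 0.51 over the members and -0.04 over all genes. TIL against spleen in KO called 1 member, Socs2, against 1.35% of genes. An unadjusted p under 0.05 was found for 7 members, against 31.0% of genes, and DESeq2 called Il2ra, Socs2 and Socs3, against 19.7% of genes. Without overlap, 7 members were below the spleen (32.9% of genes) and 1 above (30.6% of genes), with a median of -0.67 over the members and 0.01 over all genes. The interaction called 0 members and 0% of genes by edgeR. Il2ra and Socs2 had an unadjusted p under 0.05 for the interaction, against 7.83% of genes, and DESeq2 called the same 2 genes, against 1.85% of genes. Each group enters 2 of the 4 comparisons of groups, which therefore share libraries.

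**Figure D4:**
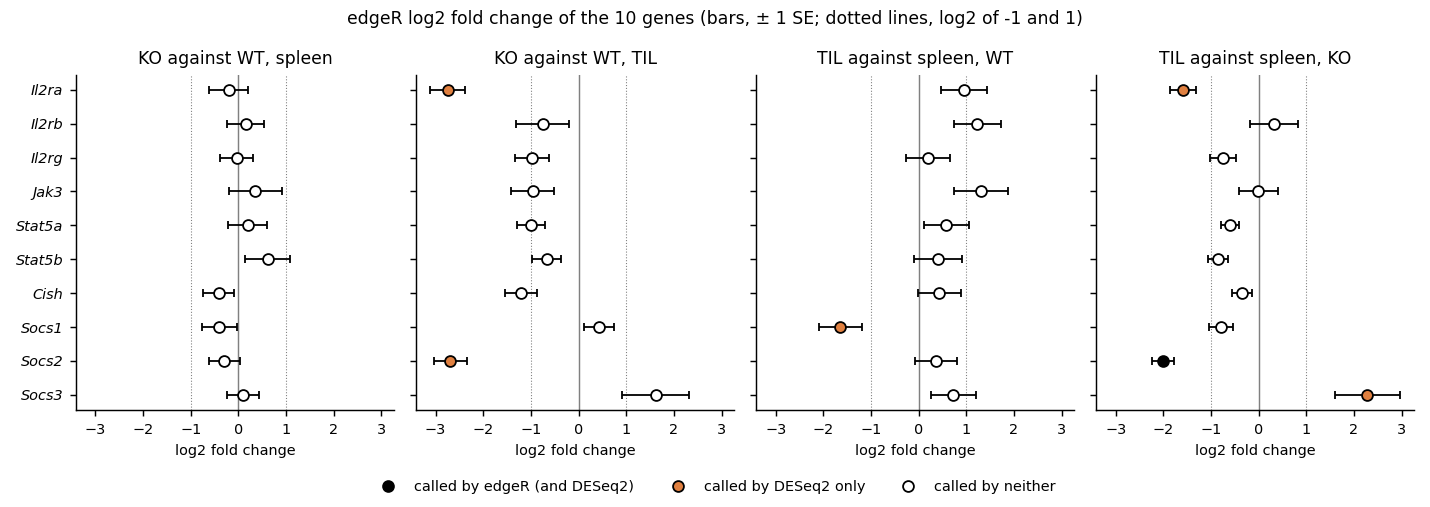
edgeR log2 fold changes of the 10 genes in 4 comparisons, with bars of 1 SE, filled black where edgeR and DESeq2 called the gene, orange where DESeq2 alone did and white otherwise. Il2ra and Socs2 lay furthest to the left in KO against WT TIL, at -2.75 and -2.69, while all spleen values were within 0.61 of 0.

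The lower levels in KO TIL depend on what the libraries are scaled to. With libraries scaled to equal pan T cell marker counts, the median of all genes moved to 1.50, and Il2ra was at -1.44 (SE 1.25, edgeR adjusted p = 0.475) and Socs2 at -1.15 (SE 1.24, edgeR adjusted p = 0.492), while Il2rb, Il2rg, Jak3, Stat5a, Stat5b and Cish turned positive, between 0.20 and 0.89. Scaled to Cd4 counts, a setting chosen after the data were seen, the median of all genes moved to 3.38, and Il2ra and Socs2 were at 0.71 and 0.68. Relative to those medians Il2ra was at -2.94 and -2.67 and Socs2 at -2.64 and -2.70. A scaling applies the same factor to all genes of a library. Subtracting the median therefore mostly undoes it, and these values are not a separate check on cell content.

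Counts of Il2ra per 1000 pan T cell marker counts were 46.4 and 20.8 in KO TIL, 101 and 81.5 in WT TIL, 43.5 and 43.5 in KO spleen and 58.8 and 26.6 in WT spleen. On this scale the WT TIL libraries were above all others, and the KO TIL libraries did not stand apart from the spleens. Per Cd4 count, Il2ra was 0.441 and 1.54 in KO TIL against 0.693 and 0.516 in WT TIL, and Socs2 was 0.0795 and 0.168 against 0.0729 and 0.0817, so that for Il2ra KO TIL 1 lay below both WT TIL libraries and KO TIL 2 above both, while for Socs2 KO TIL 1 lay between them and KO TIL 2 above. Socs2 per 1000 pan T cell marker counts was 8.35 in KO TIL 1, 2.28 in KO TIL 2, 10.6 and 12.9 in WT TIL and between 7.71 and 8.55 in spleen. The part of the low Cd4, Foxp3 and T cell content in the members' levels was not tested further.

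**Figure D5:**
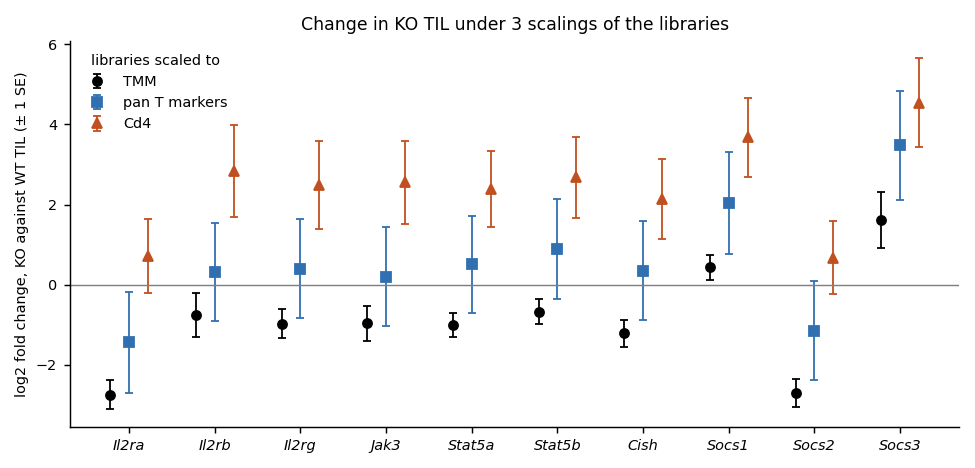
log2 fold change of the 10 genes in KO against WT TIL with bars of 1 SE, with libraries scaled by TMM, to the pan T cell markers or to Cd4. Every gene moved upward when scaled to pan T cell markers or to Cd4, with Il2ra at -2.75, -1.44 and 0.71, and Il2ra and Socs2 were the lowest of the 10 under all 3 scalings. Each scaling applies the same factor to all genes of a library, so the order of the genes is not a separate check.

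The other genes of the pathway were counted from lists of ligands, receptors, kinases, inhibitors and targets. Of the ligands of the common gamma chain, Il2 itself was at or below 1.68 CPM in all 8 libraries and Il9 had 0 counts in each, below the floor of 3 counts. Il4, a type 2 cytokine, fell by 3.72 on the log2 scale in WT TIL against WT spleen (SE 0.83, edgeR adjusted p = 0.028), from 6.65 and 8.35 CPM to 0.22 and 0.91 CPM. It was the 1 called gene of 5 ligands tested in that comparison, where edgeR called 5.97% of all genes. In KO against WT 0 ligands passed in TIL or spleen, where edgeR called 0% of all genes. Among 5 other common gamma chain receptors, Il9r, the IL-9 receptor, fell by 4.51 in KO TIL against KO spleen (SE 0.34, edgeR adjusted p = 0.0353). It went from 34.3 and 48.0 CPM to 1.68 and 1.91 CPM, in a comparison where edgeR called 1.35% of all genes. In WT TIL it was at 6.32 and 14.95 CPM, and KO against WT TIL was -2.57 (SE 0.61, edgeR adjusted p = 0.282). Of the 8 other Jak and Stat genes, 0 passed edgeR's threshold in any of the 5 comparisons. Over all genes edgeR called 5.97% in TIL against spleen in WT, 1.35% in KO and 0% in the others. DESeq2 called 1 of the 8 higher and 0 lower in TIL against spleen in WT, and the same in KO, beside 9.91% and 19.7% of genes. Stat3 was at 736 and 879 CPM in WT TIL and 320 and 151 CPM in WT spleen. KO TIL held 606 and 709 CPM of Stat3 and KO spleen 344 and 301 CPM. In KO against WT TIL, Jak2 came nearest, at 1.21 (edgeR adjusted p = 0.3934).

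Targets known to be induced through IL-2 and STAT5, 16 genes of which several are also Treg identity markers, went both ways. The list includes Prdm1, the gene deleted in KO mice, and Foxp3, from which the Cre is driven. In WT TIL against WT spleen, where edgeR called 5.97% of all genes, it called Gzmb (4.69), Ctla4 (3.82), Prf1 (5.13) and Bcl2l1 (1.85) higher and Bcl2 (-2.31) lower. In WT TIL 1 and WT TIL 2, Prf1 was at 245 and 42.1 CPM and Cd8a at 71.8 and 9.69 CPM. The part of CD8 cells in the Prf1 level was not tested. Gzmb and Prf1 encode cytotoxic granule proteins and Ctla4 an inhibitory receptor. In KO TIL against KO spleen, Prf1 rose by 8.85 and Ikzf2, which encodes the Treg factor Helios, fell by 2.48 (edgeR adjusted p = 0.0485 for both), in the comparison with the CD8 marker difference above. There edgeR called 1.35% of all genes. In KO against WT TIL 0 of the 16 passed. Ikzf2 (-2.91) and Ctla4 (-2.84) had the smallest p-values among those lower and Mcl1 (2.68) and Bcl2 (2.02) among those higher. All 4 were among the genes called by DESeq2, which called 4.68% of all genes. The median log2 fold change was -0.31 over the list and 0.04 over all genes. Mcl1 was at 885 CPM in KO TIL 1, the library with the most macrophage markers, and 309 CPM in KO TIL 2. WT TIL held 88.6 and 97.5 CPM of Mcl1. Bcl2 was at 80.1 and 134 CPM in KO TIL and 16.7 and 36.1 CPM in WT TIL. The part of cell content in the Mcl1 and Bcl2 levels was not tested.

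Of 6 genes known to be repressed through IL-2 and STAT5, Tcf7 (-4.07), Cxcr5 (-3.79) and Il6ra (-2.35) fell in WT TIL against WT spleen, and Cxcr5 (-3.95) and Tcf7 (-2.47) in KO TIL against KO spleen. Over all genes edgeR called 5.97% and 1.35% in these comparisons. Tcf7 encodes the memory factor TCF-1 and Cxcr5 the follicular homing receptor. In KO against WT TIL 0 of the 6 passed in edgeR, with Tcf7 at 2.05 (edgeR adjusted p = 0.264, DESeq2 adjusted p = 0.00798, a call in DESeq2), from 9.38 and 19.7 CPM in WT TIL to 55.1 and 66.3 CPM in KO TIL. Among 14 other inhibitors, the MAP kinase phosphatase Dusp5 rose in KO TIL against KO spleen by 3.68 (SE 0.24, edgeR adjusted p = 0.0332), from 36.7 and 29.7 CPM to 412 and 428 CPM, while Sh2b3 fell by 2.87 in WT TIL against WT spleen (SE 0.52, edgeR adjusted p = 0.0107). Of the 10 adaptors and PI3K genes, Foxo1 fell by 1.86 in WT TIL against WT spleen (SE 0.46, edgeR adjusted p = 0.0405). Both KO libraries lay above both WT libraries for 9 of these 10 genes in TIL, beside 18.0% of all genes, with 0 called by edgeR. DESeq2 on the same 4 libraries called 2, Grb2 (adjusted p = 0.0412) and Gab2 (adjusted p = 0.0337), beside 4.68% of all genes. Gab2 was at 77.9 CPM in KO TIL 1, the library with the most macrophage markers, and 7.33 CPM in KO TIL 2. WT TIL held 7.11 and 2.13 CPM of Gab2. The part of macrophage RNA in the Gab2 level was not tested.

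Across the 8 libraries, the genes most like Il2ra by Pearson's r of log2 CPM, among 8982 genes with a mean of at least 10 CPM, were Spata2l (0.974), Neil1 (0.964), Penk (0.960), Adck5 (0.960) and Tpst2 (0.951). Penk, which encodes proenkephalin, was at 338 and 393 CPM in WT TIL, 77.0 and 72.3 CPM in KO TIL and between 217 and 304 CPM in spleen. Those most like Cish were Traf1 (0.990), Trpm4 (0.948), Fam132a (0.942), Gpr55 (0.930) and Faim (0.928). Traf1, a signaling adaptor of the TNF receptor family, was at 399 and 522 CPM in WT TIL and 222 and 182 CPM in KO TIL. Among the members, Il2ra was closest to Il2rg (0.924), Socs2 (0.893) and Cish (0.859), and its r with Socs3 was -0.619. These values describe 8 libraries of 4 groups that share depth and cell content.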

How the data were processed

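For 8 libraries of sorted eTreg cells, raw counts of each gene were deposited by the authors. Reads (random-primed after rRNA removal, paired, 150 bases) were trimmed with Trimmomatic 0.36, aligned to GRCm38 with STAR 2.5.2b and counted in exons as unique reads with featureCounts (Subread 1.5.2). Whether counting used strand is not given in the sources used here. A deposited table of normalized counts was not used.

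Groups came from the labels. Replicates differed by more than sampling noise (37.2 to 344 times the variance of counting, by chi-square). Floors of 3 counts cover counting error only. Tests used the 4 libraries compared, and the interaction all 8, in edgeR 4.0.16 with R 4.3.3 (TMM, filterByExpr, quasi-likelihood test, Benjamini-Hochberg adjusted p under 0.05 and absolute log2 fold change over 1). Alternatives were DESeq2 1.42.0, fits on 8 libraries, other scalings, no filter, a log2 threshold of 2, a replicate block and leaving out each library; scaling to Cd4 was added after seeing the data. CPM used TMM factors over 8 libraries. Ratios were tested with exact permutation tests (scipy 1.17.1). The edgeR fits were tested on simulated counts with 200 genes changed by 3 on the log2 scale. They recovered 43% of these in KO against WT TIL, 92% in KO against WT spleen and 9.5% in the interaction. TIL against spleen recovered 84.5% in WT and 73.5% in KO. A result that did not pass is therefore not evidence of no difference. GC content came from the richest 200-base window of the longest GENCODE M21 transcript, in classes of 5 points. The 10 genes, the lists and the tests were chosen with earlier results of these data known. Named genes are the 10, at most 4 per list and direction past the threshold, or where none passed those with the smallest p, and the 5 genes most correlated with Il2ra and with Cish.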

Additional observations from a re-analysis of the deposited data

Results flagged for a closer look

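Il2ra was flagged because TIL against spleen went opposite ways in the genotypes, above the spleen in both WT libraries and below it in both KO libraries, and because DESeq2 called its interaction. The interaction was -2.55 on the log2 scale (SE 0.57, edgeR adjusted p = 0.269, DESeq2 adjusted p = 0.0106). Cish was flagged for the same opposite order of tissues, with an interaction of -0.80 (SE 0.45, edgeR adjusted p = 0.753, DESeq2 adjusted p = 0.797). Stat5b was flagged because KO lay below WT in TIL and above WT in spleen without overlap, with an interaction of -1.28 (SE 0.60, edgeR adjusted p = 0.679, DESeq2 adjusted p = 0.585). Socs2 was flagged because DESeq2 called its interaction, at -2.40 (SE 0.47, edgeR adjusted p = 0.234, DESeq2 adjusted p = 0.00704). In edgeR none of these interactions passed. In all of them the KO TIL libraries, with their low Cd4 and Foxp3, enter, and their part was not tested. With 2 libraries a group, single libraries were not tested as outliers.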

How the results depend on the processing

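Counts of members called moved with the tool. For KO against WT in TIL, where edgeR on 4 libraries called 0, DESeq2 on 4 libraries called 2, edgeR on 8 called 2, DESeq2 on 8 called 3, edgeR with no filter on low counts called 3, and scaling to Cd4 called 8. Over all genes these settings called 761 of 16264, 135 of 17870, 930 of 16585, 1072 of 26564 and 15132 of 15935. For TIL against spleen in WT, against 0, DESeq2 on 4 libraries, edgeR on 8, DESeq2 on 8 and no filter each called 1, and 1805, 671, 2166 and 1922 genes in all, against 981. For TIL against spleen in KO, against 1, DESeq2 on 4 libraries called 3, edgeR on 8 called 2, DESeq2 on 8 called 3 and no filter called 3, and 3813, 1743, 3272 and 3183 genes in all, against 228. For the interaction, against 0, DESeq2 and no filter each called 2, and 307 and 752 genes. With 1 library left out, counts ran from 0 to 0 in KO against WT TIL and in the interaction, 0 to 2 in spleen, 0 to 4 in TIL against spleen in WT and 0 to 3 in KO. The lone library of a group is then assumed to vary like the others. The 2 and the 4 came without WT spleen 1, the 3 without either KO TIL library and the 0 in KO without either KO spleen library. Over all genes these fits called 3972 of 18008 in spleen and 1401 of 17792 in WT without WT spleen 1, 3549 of 17976 and 4958 of 18484 in KO without KO TIL 1 or 2, and 0 without KO spleen 1 or 2. The ratio tests stayed above 0.05 under every alternative run, but with 1 library left out the exact test cannot go below 0.05. The differences then ran from -1.34 to -0.56 for Il2ra to Il2rb and from 0.10 to 0.32 for Stat5a to Stat5b. The cause of these moves was not tested.

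With the replicate number as a replicate block, edgeR called 2 members in KO against WT TIL (Il2ra, -2.78, and Socs2, -2.66), 1 in TIL against spleen in WT (Socs1, -1.60), 0 in KO (Socs2, -2.01, adjusted p = 0.0696), 0 in spleen and 0 for the interaction, and 728, 1463, 192, 101 and 0 genes in all. Deviations of libraries with the same number correlated at 0.234 in TIL, 0.155 in spleen, -0.024 in WT and -0.22 in KO, and the labels do not say that numbers pair libraries. For the ratios, the block left both exact permutation p-values above 0.05, where 0.125 is the smallest possible.

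Some values changed sign. Scaled to pan T cell markers, KO against WT in TIL became 0.32 for Il2rb, 0.39 for Il2rg, 0.20 for Jak3, 0.52 for Stat5a, 0.89 for Stat5b and 0.35 for Cish, KO against WT in spleen 0.028 for Il2ra and 0.22 for Il2rg, KO TIL against KO spleen 0.51 for Il2rg, 1.07 for Jak3, 0.79 for Stat5a, 0.57 for Stat5b, 1.08 for Cish and 0.72 for Socs1, and the interaction 0.17 for Il2rg, 0.10 for Stat5a, 0.059 for Stat5b and 0.51 for Cish. Scaled to Cd4, KO against WT in TIL became 0.71 for Il2ra, 2.84 for Il2rb, 2.49 for Il2rg, 2.56 for Jak3, 2.39 for Stat5a, 2.68 for Stat5b, 2.14 for Cish and 0.68 for Socs2. The median of all genes moved too, with pan T cell scaling to 1.50, 0.24, 1.37 and 1.28 in these 4 comparisons and with Cd4 to 3.38. Relative to it, which mostly undoes the scaling, every one of these values turned positive by the 2 scalings was negative, from -2.70 to -0.020. In spleen, the Il2rg difference of -0.03 became 0.0023 in DESeq2 and with its size factors, 0.033 with library totals and 0.025 with no filter. The Jak3 value of -0.01 in KO TIL against KO spleen became 0.023 in DESeq2 on 4 libraries, 0.019 on 8 and 0.023 with its size factors. With 1 library left out, signs turned for KO against WT in spleen in Il2ra (-0.60 to 0.42), Il2rb (-0.15 to 0.60), Il2rg (-0.12 to 0.13), Jak3 (-0.26 to 1.50), Stat5a (-0.20 to 0.80) and Socs3 (-0.13 to 0.44), for Stat5b in TIL against spleen in WT (-0.050 to 1.17), and for Il2rb (-0.56 to 0.88) and Jak3 (-0.64 to 0.43) in KO TIL against KO spleen. Subtracting the median of genes of like GC content moved 1 of 50 member values by more than 1 SD between replicates, Il2rg in spleen, to 0.12. In all, 590 of 680 member values were counted as unchanged and 44 as changed in sign. Unchanged meant the same sign and side of the threshold, or for the GC adjustment a move within 1 SD between replicates. The Il2rg value in spleen, which went from -0.03 to 0.12 with the GC adjustment, is not among the 44. The lowest count of a member in a library was 298, above the floor of 3 counts.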
